A study of Mus musculus with 8 samples.

Results

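Heat shock genes encode the molecular chaperones that fold newly made proteins and hold or refold damaged ones. In resting cells the transcription factor HSF1 is kept inactive, in part by chaperones bound to it. When unfolded proteins accumulate, HSF1 forms trimers that bind repeats of the 5-base unit nGAAn, the heat shock element, upstream of chaperone genes. Some chaperones, such as Hspa8 and Hsp90ab1, are made constitutively at a high level, whereas Hspa1a and Hspa1b are near-silent without stress and rise steeply with heat, toxic metals or rough handling of isolated cells. Neutrophils are short-lived granulocytes that are easily activated while a tissue is dissociated and sorted, so the inducible heat shock genes are also a common check of how cells were handled.

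The 10 genes described here were chosen by symbol, with earlier results of these data known, among 52081 gene identifiers with an entry in GENCODE release M21. They are the stress-inducible HSP70 genes Hspa1a and Hspa1b, the HSP40 gene Dnajb1, the HSP110 gene Hsph1, the inducible HSP90 gene Hsp90aa1, the constitutive HSP70 and HSP90 genes Hspa8 and Hsp90ab1, the mitochondrial chaperonin pair Hspd1 and Hspe1, and Hsf1. RNAseq was performed on neutrophils from spleens of FVB-WT mice and FVB-*Cxcr2-/-* mice, all 10 weeks old and housed under specific and opportunistic pathogen-free conditions, with 4 mice and 4 libraries per genotype. *Cxcr2-/-* mice lack the chemokine receptor CXCR2 in every cell from conception, so the neutrophils also matured in a host without the receptor. Spleen cells were enriched on CD11b beads and then sorted as CD45+ CD11b+ Ly6G+ F4/80- cells, and these labels and gates were shared by both genotypes. Ribosomal RNA was depleted and strand-directed libraries were made, and the deposited values are whole read pairs per gene. The question addressed is how the neutrophils differ with and without Cxcr2, and the heat shock genes give one view of it.

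The libraries held between 34220182 and 46233555 read pairs on genes in WT and between 37549648 and 43789253 in *Cxcr2-/-*. Cxcr2 itself measured 1956 ± 221 CPM (read pairs per 1e6 assigned to genes after scaling; mean ± SD, n = 4) in WT neutrophils and 17.1 ± 3.46 in *Cxcr2-/-* neutrophils. The summed level of 12 neutrophil marker genes was 49086 to 66740 CPM in WT and 107374 to 139798 CPM in *Cxcr2-/-* libraries. Of these 12 genes, 9 were higher in *Cxcr2-/-* and 2, Csf3r and Cxcr4, were lower, against 23.7% higher and 21.0% lower over all genes. Ly6g, the sort antigen, rose from 225.6 to 538.7 CPM. A list of 46 marker genes of other spleen cells summed to 911.4 to 1103 CPM in WT and 1036 to 1191 CPM in *Cxcr2-/-* libraries, and none of these genes was at 0 in every library. Of the 35 tested, 5 were higher and 12 were lower, with a median log2 fold change of -0.56. Monocyte and macrophage markers made up most of the sum, at 692 to 822.4 CPM in WT and 848.7 to 979.9 CPM in *Cxcr2-/-*. Among the 46 genes, the 7 B cell markers summed to 32.9 to 73.3 CPM in WT and 16.1 to 37.7 CPM in *Cxcr2-/-*, and 5 of them were lower. Cd79a, part of the B cell receptor, did not pass (log2 fold change -0.40, adjusted p = 0.181 by edgeR). The shares of read pairs that met no gene were 31.4 to 41.5% in WT and 26.7 to 31.9% in *Cxcr2-/-* libraries. In bulk samples, fewer cells of a type and less RNA per cell cannot be told apart.

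Upstream sequence is shown for the inducible HSP70 pair because these near-identical genes are told apart by few bases, and for Hspe1 because the strand facing it belongs to Hspd1. RefSeq promoters (GRCm38.p6, 250 bases before to 50 after each start site) were found for 6 of the 10 genes, namely Hspa1a, Hspa1b, Dnajb1, Hsph1, Hspd1 and Hspe1. The heat shock element was searched on both strands as GAANNTTC, as TTCNNGAA and as a 3-unit element, in which GAANNTTC runs on into a further unit in the alternating orientation, so that it holds one of each pair. The first pair of sequences is the 250 bases before the start site of Hspa1a (chr17:34972157-34972406, minus strand) and Hspa1b (chr17:34959239-34959488, minus strand), with GAANNTTC in capitals. The third is a 30-base stretch upstream of Hspe1 (chr1:55088053-55088082, plus strand) with its run of heat shock units in capitals.
Hspa1a: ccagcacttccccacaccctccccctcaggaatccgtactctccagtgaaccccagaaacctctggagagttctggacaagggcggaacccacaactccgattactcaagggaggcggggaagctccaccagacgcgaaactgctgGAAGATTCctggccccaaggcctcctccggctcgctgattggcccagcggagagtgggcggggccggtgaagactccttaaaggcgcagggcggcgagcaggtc
Hspa1b: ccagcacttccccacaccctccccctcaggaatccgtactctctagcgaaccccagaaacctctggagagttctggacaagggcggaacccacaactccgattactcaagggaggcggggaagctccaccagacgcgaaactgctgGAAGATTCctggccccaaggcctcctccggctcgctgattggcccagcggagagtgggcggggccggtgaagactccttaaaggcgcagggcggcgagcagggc
Hspe1: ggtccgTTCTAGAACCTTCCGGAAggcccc

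The Hspa1a and Hspa1b stretches were 98.8% identical. Their 3 differences were C207T, T204C and T2G, where positions are counted upstream from the start site and the base of Hspa1a comes first. GAANNTTC was held by 7.86% of all 32851 RefSeq mouse promoters of this length, either pair of units by 15.1%, and the 3-unit element by 0.603%. The 3-unit element occurred in the Hspe1 window, in one of the 2 Hspd1 windows, which holds the same stretch read from the other side, and in the Hsph1 windows within the 50 bases after the start site. No motif of the 3 was found in the 2 Dnajb1 windows. The Hspe1 stretch shown lies inside an annotated 5′ exon of one Hspd1 transcript, and the exons of Hspd1 and Hspe1 overlap on opposite strands by 112 bases.

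Of the 10 heat shock genes, 1 was higher in *Cxcr2-/-* than in WT neutrophils, 2 were lower, and 7 did not pass an adjusted p of 0.05 in the quasi-likelihood test of edgeR, with p-values adjusted by the Benjamini-Hochberg method over all 16778 genes tested. Hsp90ab1 rose, and Dnajb1 and Hspe1 fell, each by at least 1.5-fold, which 31.3% of all tested genes did in either direction (15.7% higher and 15.7% lower). Over all tested genes 23.7% were higher and 21.0% were lower, 44.7% in either direction, so 3 of 10 lay below the background share. The groups did not overlap for the same 3 genes, against 41.6% of all genes, 22.5% higher and 19.1% lower. The median log2 fold change (*Cxcr2-/-* over WT) was -0.19 over the 10 genes and 0.01 over all tested genes. All 10 genes passed the filter on low counts, and Hspe1 reached its cutoff of 0.25 CPM in 7 of the 8 libraries.

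**Figure D1:**
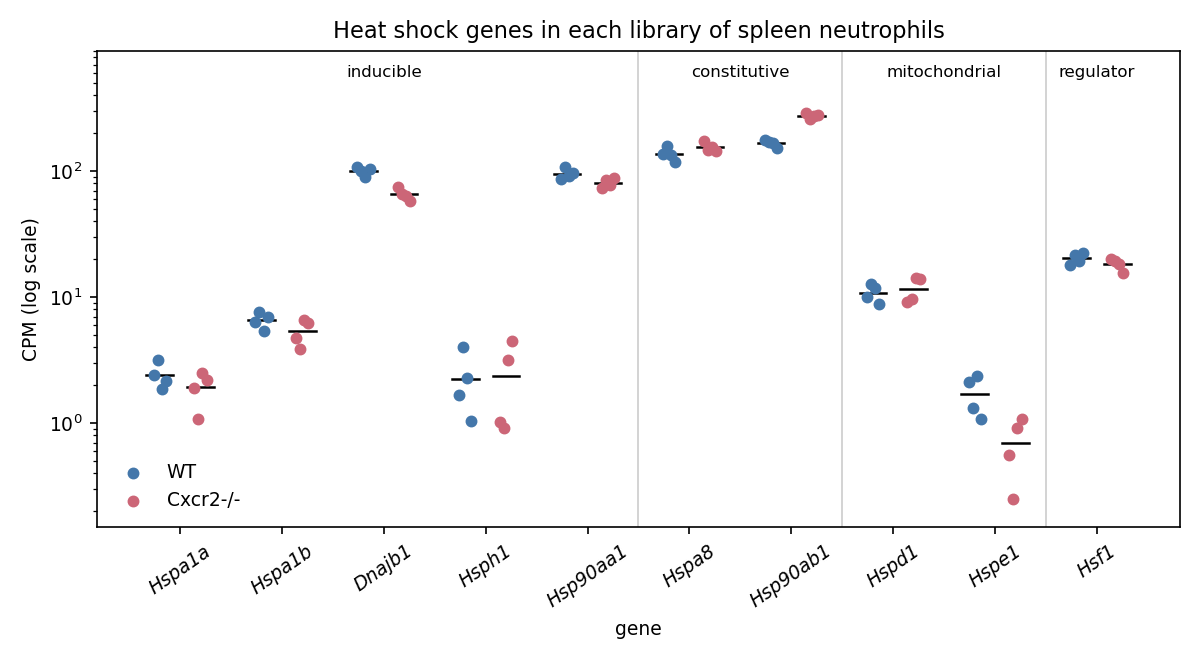
Level of each of the 10 heat shock genes in every library, in CPM on a log scale. Points are libraries of WT and *Cxcr2-/-* neutrophils, 4 per group, and bars are group means. The groups are separate for Dnajb1, Hsp90ab1 and, narrowly, Hspe1, and overlap for the other 7 genes.

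The inducible HSP70 genes were low in every library. Hspa1a (ENSMUSG00000091971, chr17:34969190-34972156, minus strand, GRCm38) measured 2.41, 3.16, 1.87 and 2.14 CPM in the 4 WT libraries and 1.90, 1.08, 2.49 and 2.21 CPM in the 4 *Cxcr2-/-* libraries. These values rest on 70 to 157 read pairs per WT library and 39 to 98 per *Cxcr2-/-* library. The groups overlapped, with the lowest value in *Cxcr2-/-* replicate 2 and the highest in WT replicate 2. The log2 fold change was -0.32 (SE 0.27, 95% interval -0.91 to 0.27, adjusted p = 0.366 by edgeR).

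Hspa1b (ENSMUSG00000090877, chr17:34956436-34959238, minus strand), the adjacent copy that encodes an almost identical HSP70, measured 6.32, 7.60, 5.37 and 6.94 CPM in WT and 4.70, 3.85, 6.58 and 6.25 CPM in *Cxcr2-/-* libraries. The same library of each genotype, WT replicate 2 and *Cxcr2-/-* replicate 2, held the highest and the lowest value as for Hspa1a, and the groups again overlapped. The log2 fold change was -0.29 (SE 0.19, interval -0.71 to 0.12, adjusted p = 0.235 by edgeR). Of all 150-base windows in the annotated transcripts, 39.7% for Hspa1a and 40.5% for Hspa1b occurred letter for letter in a transcript of another gene, so how read pairs were divided between the copies is uncertain and both levels may be too low. With the counts of both genes summed, the log2 fold change was -0.30 (adjusted p = 0.23 by edgeR). In addition, an opposite-strand gene, Gm20481, covers 564 exon bases of Hspa1a.

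Hsph1 (ENSMUSG00000029657, chr5:149614287-149636376, minus strand), the HSP110 that recharges HSP70 with ATP, was the least stable of the 10 genes within a genotype. It measured 1.68, 3.999, 2.30 and 1.04 CPM in WT and 1.01, 0.913, 3.15 and 4.45 CPM in *Cxcr2-/-* libraries, so its highest library exceeded its lowest 3.84-fold in WT and 4.87-fold in *Cxcr2-/-*. The log2 fold change was 0.07 with an interval of -1.02 to 1.16 (adjusted p = 0.919 by edgeR), so a difference of up to 1 log2 unit in either direction was not detectable in these libraries. Its sign turned under other scalings and when single libraries were left out.

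Dnajb1 (ENSMUSG00000005483, chr8:83608193-83612653, plus strand) encodes the HSP40 that delivers clients to HSP70 and is itself a classical HSF1 target. It measured 107.4, 100.4, 90.4 and 104.6 CPM in WT and 75.05, 65.9, 63.8 and 57.8 CPM in *Cxcr2-/-* libraries, on at least 2378 read pairs each. Every WT library lay above every *Cxcr2-/-* library. The mean fell from 100.7 ± 7.42 to 65.6 ± 7.16 CPM (SD, n = 4), 1.53-fold lower in *Cxcr2-/-* (log2 fold change -0.62, SE 0.10, adjusted p = 0.00027 by edgeR), and the call held in all 18 alternative analyses.

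Hsp90aa1 (ENSMUSG00000021270, chr12:110690605-110702728, minus strand), the HSP90 form that stress induces, measured 86.4, 108.5, 91.1 and 96.1 CPM in WT and 72.9, 85.5, 77.4 and 87.9 CPM in *Cxcr2-/-* libraries. The groups overlapped, since WT replicate 1 lay below *Cxcr2-/-* replicate 4. The log2 fold change was -0.24 (SE 0.10, interval -0.45 to -0.03), with an unadjusted p of 0.0307 and an adjusted p of 0.0648 by edgeR, so it did not pass the threshold. It passed without WT replicate 1 (adjusted p = 0.049 by edgeR) and without *Cxcr2-/-* replicate 4 (adjusted p = 0.0429 by edgeR), and in 7 of 18 alternatives altogether, so its call depends on the processing.

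**Figure D2:**
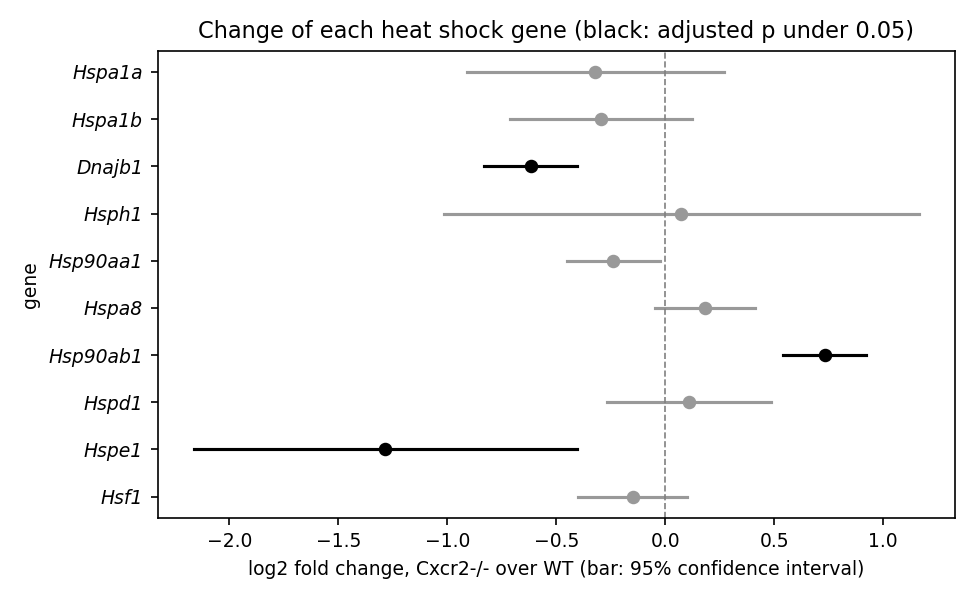
Log2 fold change (*Cxcr2-/-* over WT neutrophils) of each of the 10 genes from edgeR, with 95% intervals, n = 4 libraries per group. Black points passed an adjusted p of 0.05 and grey points did not. Hsp90ab1 stands at 0.73, Dnajb1 at -0.62 and Hspe1 at -1.28, and the intervals of 6 of the other 7 genes cross 0.

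Among the constitutive chaperones, Hsp90ab1 (ENSMUSG00000023944, chr17:45567775-45573271, minus strand), the HSP90 form made in unstressed cells, measured 176.9, 168.6, 165.8 and 152.2 CPM in WT and 288.2, 259.2, 275.0 and 279.3 CPM in *Cxcr2-/-* libraries. All *Cxcr2-/-* libraries lay above all WT libraries, and the libraries of a genotype were within 1.16-fold of each other in WT and 1.11-fold in *Cxcr2-/-*. The mean rose from 165.9 ± 10.3 to 275.4 ± 12.1 CPM (SD, n = 4), 1.66-fold (log2 fold change 0.73, SE 0.09, adjusted p = 2.99e-05 by edgeR). This call held in all 18 alternatives, with log2 fold changes of 0.61 to 0.77.

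Hspa8 (ENSMUSG00000015656, chr9:40800984-40810087, plus strand), the constitutive HSP70, measured 136.5, 157.6, 134.0 and 116.9 CPM in WT and 172.2, 145.7, 155.9 and 144.2 CPM in *Cxcr2-/-* libraries. The groups overlapped through WT replicate 2. The log2 fold change was 0.18 (SE 0.11, interval -0.05 to 0.41, adjusted p = 0.185 by edgeR). Transcripts of other gene models share 22.8% of its 150-base windows and 28.5% of those of Hsp90aa1, against none for Hsp90ab1, Dnajb1, Hsph1 and Hsf1.

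The ratio of the HSP90 forms needs no scaling between libraries. There were 0.488, 0.643, 0.550 and 0.631 Hsp90aa1 pairs per Hsp90ab1 pair in WT and 0.253, 0.330, 0.282 and 0.315 in *Cxcr2-/-* libraries. The mean was 1.96-fold higher in WT (log2 difference -0.97, exact two-sided permutation p = 0.0286, the smallest that 4 against 4 libraries allow, and 0.0476 after adjustment over 5 ratios). There were 0.786, 0.637, 0.675 and 0.895 Dnajb1 pairs per Hspa8 pair in WT and 0.436, 0.452, 0.409 and 0.401 in *Cxcr2-/-* libraries, a log2 difference of -0.81 with the same exact p of 0.0286 and adjusted p of 0.0476. Both ratios were lower in 4 of 4 *Cxcr2-/-* libraries than in any WT library.

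The ratio of Hspa1a plus Hspa1b to Hspa8 was 0.0660 ± 0.00981 in WT and 0.0472 ± 0.0130 in *Cxcr2-/-* libraries (SD, n = 4 each; log2 difference -0.51, exact permutation p = 0.0857, adjusted 0.107), and the groups overlapped. The ratio of Hsph1 to Hspa8 was 0.0159 ± 0.00714 in WT and 0.0158 ± 0.0120 in *Cxcr2-/-* libraries (n = 4 each; exact permutation p = 0.714). Of the inducible genes set against the constitutive HSP70 here, only Dnajb1 passed the test.

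**Figure D3:**
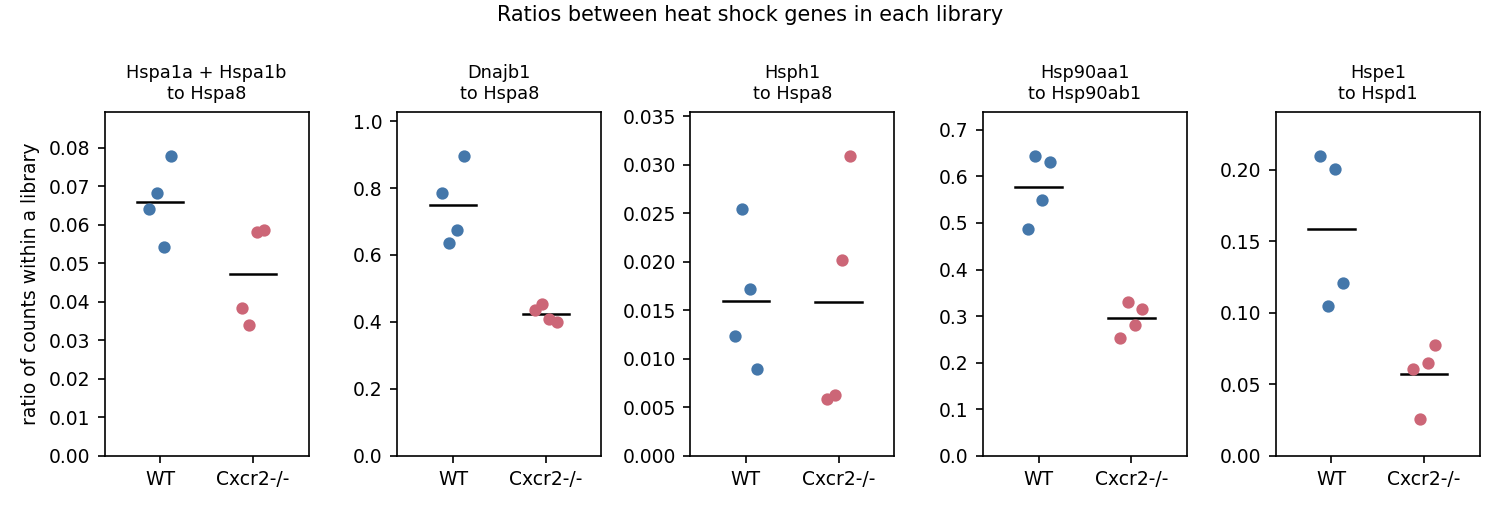
Ratio of read pairs between 2 heat shock genes in the same library, on a linear scale, for the 5 ratios tested. Points are the 4 WT and 4 *Cxcr2-/-* libraries, and bars are group means. The groups are separate for Dnajb1 to Hspa8, Hsp90aa1 to Hsp90ab1 and Hspe1 to Hspd1.

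The mitochondrial chaperonin genes Hspd1 (HSP60, ENSMUSG00000025980, chr1:55077835-55088243, minus strand) and Hspe1 (HSP10, ENSMUSG00000073676, chr1:55088132-55091307, plus strand) encode the barrel and the lid of the folding chamber in the mitochondrial matrix. Hspd1 measured 10.0, 12.7, 11.7 and 8.88 CPM in WT and 9.18, 9.63, 14.1 and 13.8 CPM in *Cxcr2-/-* libraries. The groups overlapped (log2 fold change 0.11, interval -0.27 to 0.48, adjusted p = 0.639 by edgeR), and the sign turned to -0.009 with upper-quartile scaling. Hspe1 measured 2.10, 1.33, 2.35 and 1.070 CPM in WT and 0.556, 0.249, 0.915 and 1.069 CPM in *Cxcr2-/-* libraries. WT replicate 4 and *Cxcr2-/-* replicate 4 were almost level, so the groups only just did not overlap.

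The Hspe1 mean was 1.71 ± 0.611 CPM in WT and 0.697 ± 0.368 CPM in *Cxcr2-/-* (SD, n = 4), a log2 fold change of -1.28 (SE 0.40, interval -2.16 to -0.41, adjusted p = 0.0208 by edgeR). It rests on 37 to 95 read pairs per WT library and 9 to 44 per *Cxcr2-/-* library. The adjusted p by edgeR was 0.0569 without WT replicate 1, 0.0653 without WT replicate 3 and 0.0506 without *Cxcr2-/-* replicate 1, and 0.17 with the share of pairs that met no gene as a covariate. There were 0.209, 0.104, 0.200 and 0.120 Hspe1 pairs per Hspd1 pair in WT and 0.0606, 0.0259, 0.0647 and 0.0773 in *Cxcr2-/-* libraries (log2 difference -1.52, exact permutation p = 0.0286, adjusted 0.0476). Whether pairs in the exons that the genes share on opposite strands were assigned to a gene or left out as ambiguous depends on the strand setting. That setting was not given in the sources used here. Transcripts of other gene models share 16.1% of the 150-base windows of Hspd1 and 6.64% of those of Hspe1.

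Hsf1 (ENSMUSG00000022556, chr15:76477422-76501913, plus strand) measured 17.8, 21.6, 19.2 and 22.4 CPM in WT and 19.9, 19.3, 18.3 and 15.6 CPM in *Cxcr2-/-* libraries. The groups overlapped (log2 fold change -0.15, SE 0.11, interval -0.40 to 0.10, adjusted p = 0.312 by edgeR). Its RNA level says nothing of whether the protein was active.

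Per kilobase of annotated exon, the levels of the 10 genes spanned from 0.310 to 55.3 CPM in WT neutrophils. Hsp90ab1 was highest at 55.3 ± 3.42 CPM per kb, apart from all others. Hspa8 at 31.7 ± 3.88, Dnajb1 at 31.4 ± 2.31 and Hsp90aa1 at 24.3 ± 2.42 CPM per kb followed, and the range of Hspa8 overlapped those of Dnajb1 and Hsp90aa1, which did not overlap each other. Below a gap came Hspd1 at 4.10 ± 0.646, Hsf1 at 2.86 ± 0.300 and Hspa1b at 2.34 ± 0.338 CPM per kb, the latter pair overlapping in range. Hspe1 at 1.16 ± 0.415, Hspa1a at 0.807 ± 0.186 and Hsph1 at 0.310 ± 0.175 CPM per kb were lowest, with Hspe1 and Hspa1a overlapping and Hsph1 below both.

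In *Cxcr2-/-* neutrophils Hsp90ab1 stood at 91.8 ± 4.04 CPM per kb and Hspa8 at 35.9 ± 2.99. Dnajb1 at 20.5 ± 2.23 no longer overlapped Hspa8 and was level with Hsp90aa1 at 20.6 ± 1.77 CPM per kb. Hspe1 fell to 0.473 ± 0.250 CPM per kb, below Hspa1a at 0.647 ± 0.206, with overlapping ranges. The summed level of Hspa1a, Hspa1b, Dnajb1, Hsph1 and Hsp90aa1 was 191.1 to 223.6 CPM in WT and 153.4 to 158.6 CPM in *Cxcr2-/-* libraries, while that of Hspa8 and Hsp90ab1 was 269.1 to 326.3 CPM in WT and 405.0 to 460.3 CPM in *Cxcr2-/-* libraries. Dnajb1 and Hsp90aa1 make up most of the first sum and Hsp90ab1 most of the second.

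The early response genes are also induced in isolated cells by tissue dissociation and handling, and their values are given beside those of the inducible HSP70 genes. Of 24 such genes tested, 21 were lower in *Cxcr2-/-* neutrophils and 0 were higher, against 21.0% lower over all genes, and the median log2 fold change was -1.55. Fos, a subunit of the AP-1 factor, measured 2982, 2593, 2754 and 2845 CPM in WT and 320.0, 196.7, 572.1 and 498.2 CPM in *Cxcr2-/-* libraries (log2 fold change -2.82, adjusted p = 4.93e-06 by edgeR). Egr1, a zinc-finger early factor, fell by 3.54 on the log2 scale (adjusted p = 4.86e-05 by edgeR) and Dusp1, a phosphatase that shuts off MAP kinases, fell by 2.35 (adjusted p = 5.81e-06 by edgeR). Klf4, Ier3 and Myc, named after their values were seen, did not pass.

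The 24 early response genes summed to 20322 to 23267 CPM in WT and 5587 to 8177 CPM in *Cxcr2-/-* libraries. In the same libraries Hspa1a plus Hspa1b summed to 8.73, 10.75, 7.24 and 9.08 CPM in WT and 6.60, 4.92, 9.07 and 8.46 CPM in *Cxcr2-/-*. The early response sums of the genotypes did not overlap and the inducible HSP70 sums did, while both had lower means in *Cxcr2-/-*. Within *Cxcr2-/-*, both sums were highest in replicate 3, followed by replicates 4, 1 and 2. Within WT the orders differed, with the early response sum highest in replicate 4 and the inducible HSP70 sum in replicate 2. Both WT sums were lowest in replicate 3. The difference between these gene groups was not tested. The part of handling in either result was not tested.

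*Cxcr2-/-* replicates 3 and 4 held more Hspa1a, Hspa1b, Hsph1, Hspd1 and Hspe1 than *Cxcr2-/-* replicates 1 and 2. Hspa8, Hsp90aa1 and Hsp90ab1 did not divide in this way, and Dnajb1 and Hsf1 were lower in replicates 3 and 4. The same replicates were higher in 5 early granule genes, the early granule stage markers Mpo, Elane, Prtn3, Ctsg and Ms4a3. These summed to 70.5, 71.8, 235.6 and 386.1 CPM in the 4 *Cxcr2-/-* libraries and to 7.98, 8.46, 17.3 and 4.37 CPM in WT. All 5 of these markers were higher in *Cxcr2-/-*, among them Mpo, the myeloperoxidase gene (log2 fold change 4.58, adjusted p = 2.26e-04 by edgeR), and Elane, the neutrophil elastase gene (5.15, adjusted p = 7.25e-05 by edgeR). The 15 cycling genes summed to 404.3 to 453.6 CPM in WT and 1140 to 1256 CPM in *Cxcr2-/-* libraries. Of these, 14 were higher, with Mki67 up by 1.41 and Top2a by 1.91 on the log2 scale. Over all genes, 23.7% were higher. The part of cell maturity or cycling in the heat shock values was not tested.

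Other genes were also higher in *Cxcr2-/-* replicates 3 and 4 than in replicates 1 and 2. The early response sum was 6706, 5587, 8177 and 7572 CPM in *Cxcr2-/-* replicates 1 to 4, and Klf4, an early response factor, measured 3.69, 3.98, 14.8 and 14.2 CPM. Among markers of other cells, the B cell sum was 19.5, 16.1, 31.3 and 37.7 CPM and the erythroid sum was 1.92, 1.72, 11.8 and 12.0 CPM in the same order. The dendritic, monocyte and macrophage, and eosinophil, basophil and mast cell sums were higher in replicates 3 and 4 as well, whereas the T and NK cell sum was lower, at 141.2, 119.1, 102.1 and 97.3 CPM. The part of handling or of other cells in the heat shock values of these replicates was not tested.

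**Figure D4:**
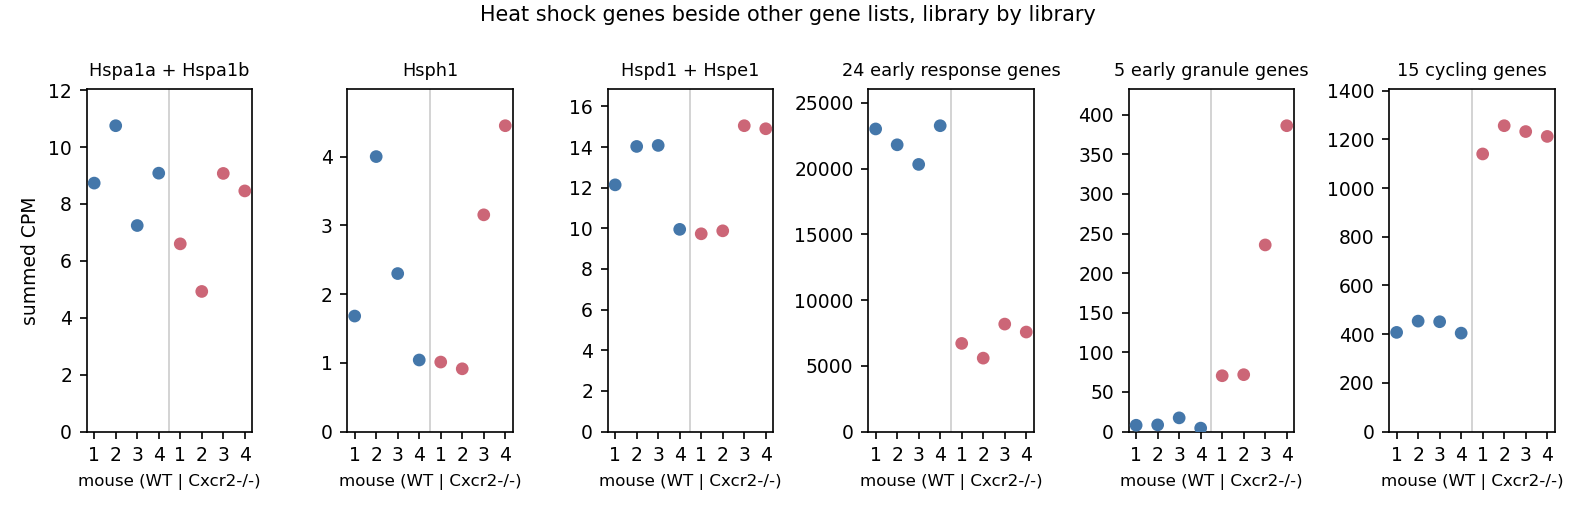
Summed level (CPM, linear scale) in each of the 8 libraries of Hspa1a plus Hspa1b, Hsph1, Hspd1 plus Hspe1, 24 early response genes, 5 early granule genes and 15 cycling genes. The early response, early granule and cycling sums do not overlap between the genotypes, and the 3 heat shock measures do. These 3 measures and the early response and early granule sums are higher in *Cxcr2-/-* replicates 3 and 4 than in 1 and 2. Dnajb1 and Hsf1, not drawn here, are lower in replicates 3 and 4.

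The genes whose pattern over the 8 libraries was most like that of Hspa1a, among 7485 genes compared by the root mean square difference of centred log2 CPM, were Plxnd1 (0.112), Hspa1b (0.126) and Tomm20 (0.138). Those most like Hspe1 were Ccdc86 (0.204), Sema4b (0.220) and Cd14 (0.241). These are descriptions over 8 libraries that share preparation and depth.

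The wider chaperone network was followed in 87 further genes, of which 76 were tested. Of these, 28 were higher and 11 were lower in *Cxcr2-/-* neutrophils, with a median log2 fold change of 0.22, against 23.7% higher and 21.0% lower over all genes. The lower count was 7 without WT replicate 2 and 7 without *Cxcr2-/-* replicate 2. With the share of pairs that met no gene as a covariate, 8 were higher and 3 lower.

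Among 12 other tested HSP40 genes, 4 rose and 4 fell, against 23.7% higher and 21.0% lower over all genes. With that covariate, 1 rose and 2 fell. Dnaja1, the main HSP40 partner of Hspa8 in the cytosol, fell from 183.8 ± 25.9 to 86.7 ± 9.71 CPM (SD, n = 4, log2 fold change -1.08, adjusted p = 1.55e-05 by edgeR), and Dnajb2 fell from 14.4 ± 1.46 to 7.00 ± 0.610 CPM (adjusted p = 3.08e-05 by edgeR). Dnajb2 (chr1:75236406-75245692) lies near the targeted gene Cxcr2 (chr1:74153989-74161246), and the *Cxcr2-/-* mice were backcrossed into FVB. The part of this position in the fall of Dnajb2 was not tested. Dnajc9, a histone chaperone, rose by 0.64 (adjusted p = 0.00301 by edgeR) and Dnajc13, which acts in endosomal sorting, rose by 0.58 on the log2 scale (adjusted p = 2.66e-04 by edgeR). Of 6 other HSP70 and HSP110 genes tested, 1 fell, Hspa4 (log2 fold change -0.22, adjusted p = 0.0404 by edgeR), which did not pass in 7 of the 8 fits that left out 1 library. The testis-enriched neighbour Hspa1l was too low to test, at up to 0.260 CPM. None of the 7 nucleotide exchange factors passed, and the stress-induced factor Bag3 measured 1.504 ± 0.369 CPM in WT and 2.72 ± 1.43 CPM in *Cxcr2-/-* (adjusted p = 0.0607 by edgeR). Bag3 passed in 6 of 18 alternatives. In the fits that left out 1 library, its log2 fold change of 0.85 ranged from 0.47 without *Cxcr2-/-* replicate 3 to 1.05 without *Cxcr2-/-* replicate 1. It was 1.71 with the covariate for pairs that met no gene, where Bag3 did not pass.

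Of 16 HSP90 co-chaperones, 8 rose and 3 fell, against 23.7% higher and 21.0% lower over all genes. Their median log2 fold change was 0.27. Ppp5c, an HSP90-bound phosphatase, rose by 1.04 on the log2 scale (adjusted p = 4.89e-05 by edgeR) and Chordc1 by 0.81 (adjusted p = 5.59e-04 by edgeR). Ahsa1, the activator of the HSP90 ATPase, rose from 25.03 to 36.34 CPM (adjusted p = 0.00148 by edgeR), while its relative Ahsa2 fell from 17.9 to 12.9 CPM (adjusted p = 0.00454 by edgeR). Unc45a, a myosin co-chaperone, fell by 0.32 on the log2 scale (adjusted p = 0.0153 by edgeR). Stip1, which bridges HSP70 and HSP90, rose by 0.28 (adjusted p = 0.0167 by edgeR, and 0.0542 without *Cxcr2-/-* replicate 3), and Fkbp5 rose by 0.31 (adjusted p = 0.0249 by edgeR) but did not pass in 5 of the 8 fits that left out 1 library. With the covariate for pairs that met no gene, 1 co-chaperone was called higher and 1 lower, and 5 were lower with total counts or upper-quartile scaling.

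Of 9 TRiC chaperonin genes, which encode the cytosolic barrel that folds actin and tubulin, 7 rose and 0 fell. Their median log2 fold change was 0.57, and over all genes 23.7% were higher and 21.0% lower. In the 18 alternatives, 5 to 8 TRiC genes were higher. The count was 7 to 8 in the fits that left out 1 library, 6 with upper-quartile or total-count scaling and 5 with the covariate for pairs that met no gene. Cct6a rose from 13.45 to 22.5 CPM (log2 fold change 0.74, adjusted p = 4.49e-04 by edgeR) and Tcp1 from 12.9 to 21.3 CPM (0.73, adjusted p = 8.51e-04 by edgeR). Cct3 and Cct6b did not pass. Of 6 prefoldin genes, which hand clients to TRiC, 2 rose and 0 fell, and 1 was higher with that covariate.

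Of 16 further mitochondrial chaperones and proteases, 6 rose and 3 fell, against 23.7% higher and 21.0% lower over all genes. None passed with the covariate for pairs that met no gene. Trap1, the mitochondrial HSP90, rose from 3.42 to 5.58 CPM (adjusted p = 0.013 by edgeR), and the protease subunits Spg7 and Afg3l2 rose by 0.48 and 0.39 on the log2 scale (adjusted p = 0.00399 and 0.00615 by edgeR). The protease Yme1l1 fell by 0.45 on the log2 scale (adjusted p = 0.00421 by edgeR). Hspa9, the mitochondrial HSP70, measured 17.7 ± 3.71 CPM in WT and 10.35 ± 4.91 CPM in *Cxcr2-/-* (log2 fold change -0.78, adjusted p = 0.0432 by edgeR), and it did not pass in 5 of the 8 fits that left out 1 library. Of the small heat shock proteins, 2 of 9 were tested, 3 were at 0 in every library, and Hspb1, which heat induces strongly in many cells, was too low to test. Its mean was 0.232 ± 0.106 CPM in the 4 WT libraries and 0.181 ± 0.0731 CPM in the 4 *Cxcr2-/-* libraries (SD).

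**Figure D5:**
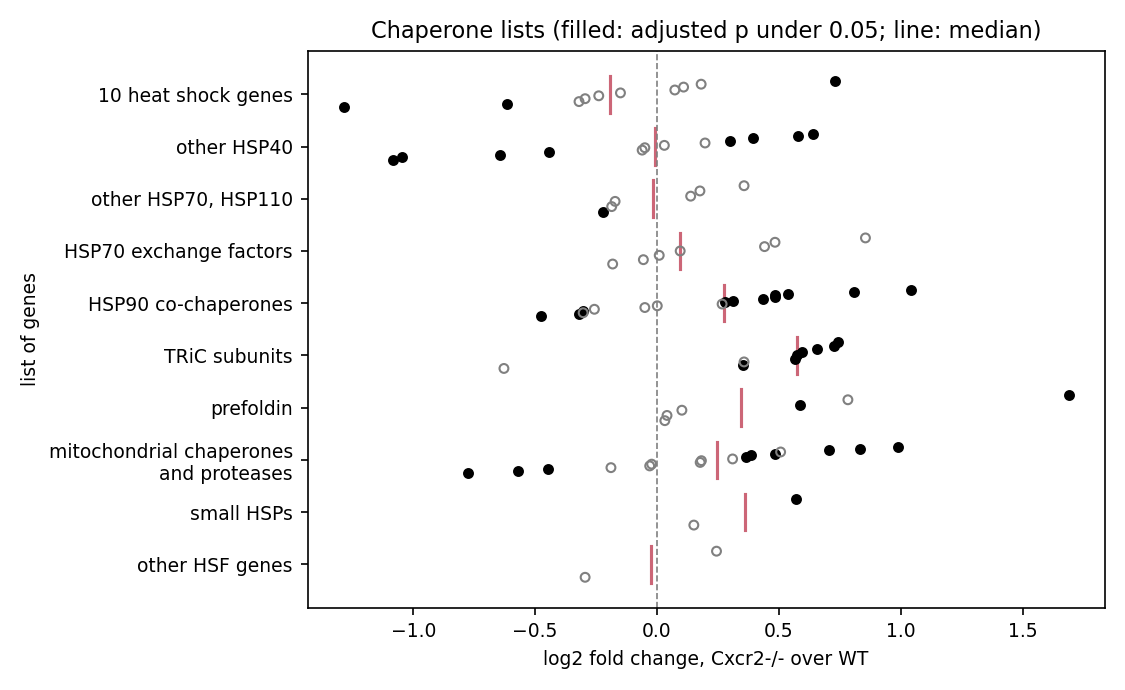
Log2 fold change (*Cxcr2-/-* over WT neutrophils, edgeR) of each tested gene in the chaperone lists, 1 row per list; filled points passed an adjusted p of 0.05, and the bar marks the list's median. The TRiC row lies mostly right of 0, with 7 genes called higher, and the HSP40 row holds 4 genes called higher and 4 called lower.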

How the data were processed

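Reads were trimmed, aligned to mm10 with STAR and counted per gene with HTSeq by the authors, and the deposited values are raw counts, 1 file per library. The annotation release and strand setting are not given in the sources used here. Identifiers were matched without their version to GENCODE M21 (GRCm38), which also gave positions and exon lengths, and 1.43% of counts lay on identifiers without an entry. Rows that name no gene were left out. Counts were filtered with filterByExpr, scaled by TMM and tested with edgeR 4.0.16 (R 4.3.3), WT against *Cxcr2-/-* with 4 libraries each, and DESeq2 1.42.0 served as an alternative. A gene passed at an adjusted p under 0.05. Ratios were tested by exact permutation. The code was tested on simulated data. Each library is 1 mouse. Promoters and motifs came from RefSeq.

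The members and lists were chosen with earlier results of these data known. Outside the 10 members, the named genes were the 2 largest rises and the 2 largest falls per chaperone list among those that passed and averaged 3 or more in log2 CPM, plus genes chosen by role. Klf4, Ier3, Myc, Cct3, Cct6b and Cxcr2 were named after their values were seen.

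Alternatives were other scalings, filters, covariates for pairs that met no gene and for markers of other cells, Hspa1a plus Hspa1b summed, a replicate block, and each library left out. Libraries of a genotype differed beyond counting noise. Hspa1a, Hsph1 and Hspe1 rest on few read pairs, 9 to 199 per library. CPM per kb assumes that all exons are counted.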

Additional observations from a re-analysis of the deposited data

How the results depend on the processing

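Dnajb1 and Hsp90ab1 passed in the same direction under all 18 alternatives, and Hspa1a, Hspa1b, Hspa8, Hsph1, Hspd1 and Hsf1 passed in none. With the share of pairs that met no gene as a covariate, members lower fell to 1, the wider chaperone lists gave 8 higher and 3 lower, all genes gave 1598 higher and 1485 lower, and Hspa9 turned to 0.093 on the log2 scale; this share differs between the genotypes, so the covariate takes up part of the contrast. Without single libraries, members lower ranged from 1 to 3 and the lower count of the wider lists from 7 to 11. The log2 fold change of Hsph1 turned to -0.04 with upper-quartile scaling, to -0.002 with total counts and to -0.067 with the replicate block, and ranged from -0.43 to 0.50 without single libraries; that of Hspd1 turned to -0.009 with upper-quartile scaling. The cause was not tested. Upper-quartile scaling moved the median of all genes by -0.12 on the log2 scale. Mice with the same replicate number are different animals, and their deviations correlated at 0.116, -0.188, 0.158 and -0.262. Those of mice with unlike numbers correlated at -0.19 to 0.264. These few values cannot decide whether a number marks a shared preparation, and the main fit used no pairing. Under the replicate block Hsp90aa1 passed (adjusted p = 0.0458 by edgeR) and members lower rose to 3. Asking for 10 counts in all libraries removed Hspe1. Hspe1 rests on 9 to 44 read pairs per *Cxcr2-/-* library.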
